A study of Mus musculus with 81 samples.

Results

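The genotype by diet interaction in CA3 pyramidal neurons (PNs) is described here: whether the difference between trisomic and disomic mice was another one when their dams had been given extra choline. It was read from all 26 CA3 PN libraries of the 81 in the series, the other 27 being from CA1 PNs and 28 from dentate granule cells (DGCs). For each gene the log2 fold change (LFC) of Ts65Dn (Ts) against disomic (2N) mice was estimated on each diet, and the interaction is the LFC on the supplemented diet minus the LFC on the normal diet. A positive interaction thus means that the gene stood higher in Ts relative to 2N on the supplemented diet than on the normal one. Every gene above a minimum expression level (given with the processing) entered, with no choice by its interaction.

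Ts mice carry a small extra chromosome that holds an extra copy of the end of mouse chromosome 16 (Mmu16), much of it orthologous to human chromosome 21, and of a pericentromeric piece of Mmu17 that has no such counterpart. Female Ts65Dn breeders were crossed to F1 males of C57Bl/6J Eicher and C3H/HeSnJ background, and disomic 2N offspring served as controls. Dams ate either 1.1 g/kg choline chloride (ChN, choline normal) or 5.0 g/kg (ChP, the supplemented diet), so that pups were exposed from E0 to P21. After weaning all mice ate the control diet, so that at 6 MO no mouse was receiving extra choline. CA3 PNs were cut out of the section by laser capture after a brief Nissl stain, with about 750 neurons pooled per brain, and each library is 1 mouse. There were 6 libraries of 2N ChN, 6 of Ts ChN, 7 of 2N ChP and 7 of Ts ChP mice.

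Choline is used in the cell for acetylcholine, for the phosphatidylcholine of membranes and, through betaine, as a methyl donor for methionine and S-adenosylmethionine, which feeds the methylation of DNA and histones. CA3 PNs receive mossy fiber input from the dentate gyrus and a cholinergic input from the basal forebrain, and they excite CA1 PNs and one another. An interaction is a difference between differences: it carries the spread of all 4 groups at once and is therefore measured less precisely than a single contrast.

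Total expected counts ran from 625249 to 4744036 per library (median 1538372). One label is in doubt. Mouse 15-145 is called Ts in its CA3 library but 2N in both of its other libraries. This CA3 library was placed with 2N ChN. Its mean over the triplicated Mmu16 genes was 4.88 log2 CPM (CPM, the count scaled to a common library total), the highest among 2N libraries, while libraries grouped as Ts began at 5.14. It is also the deepest library, and results that turn on it are given both ways. The 2 shallowest libraries, 1 of 2N ChN (625249 counts) and 1 of 2N ChP (710829), stood apart from the rest. The 7 CA3 PN markers summed to 758 to 938 CPM, with Cpne4, Nectin3 and Grik4 in the lead and Coch near 0, and did so in all groups alike. Astrocyte markers were present throughout at 1635 to 2793 CPM, and 1 Ts ChP library (replicate 2) had 173 CPM of dentate granule cell markers against at most 91.5 in the others. Y-linked Ddx3y was counted in every library and Xist had at most 1 count, although the sex of ChP mice is not in the labels.

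The interaction was small beside its error across the transcriptome. Of 16721 genes tested, 814 had an unadjusted p under 0.05, the threshold that the study used for differentially expressed genes (DEGs). Such genes are termed called here, and positive or negative by the sign of the interaction. That is 4.87% of the genes tested (457 positive, 2.73%, and 357 negative, 2.14%), where a threshold of 5% calls 836 genes when no gene differs. At p under 0.01 there were 158 genes against 167, and at p under 0.001 there were 12 against 17. No gene had an adjusted p under 0.05 (edgeR's quasi-likelihood test with Benjamini-Hochberg adjustment), and the smallest was 0.564. DESeq2 called 660 genes and limma-voom 997 at the unadjusted threshold, and neither called a gene after adjustment. The smallest adjusted p ran from 0.0626 to 0.998 over the 9 other settings and from 0.0617 to 0.9998 when single libraries were left out.

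**Figure D1:**
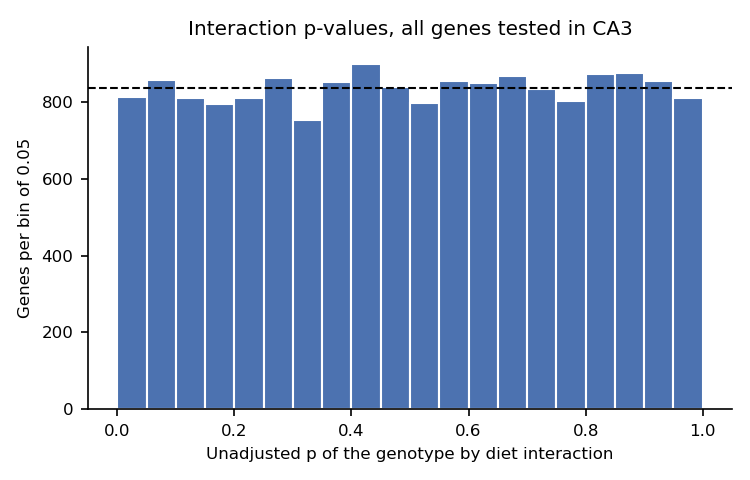
Number of the 16721 genes tested in CA3 PNs (y axis) in each bin of 0.05 of the unadjusted interaction p (x axis), with a dashed line at the count per bin when p-values are spread evenly. The first bin holds 814 genes and the 20 bins run from 753 to 899, with no excess at small p.

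The data do bound the interaction. The standard error of the interaction LFC had a median of 0.23 over the 10330 genes of at least 5 CPM on average, and 1.02 over the 6391 genes below that level. For 8123 of the 10330 genes (78.6%) the 95% interval lay within 1 of 0 on the log2 scale, which leaves out a doubling or halving of the Ts to 2N ratio by diet. For 4611 (44.6%) it lay within 0.585, the log2 of a 1.5-fold change. Among the 814 called genes the LFC had opposite signs on the diets in 89.3%, against 46.8% of all genes, as the choice of large differences makes likely, and 59.5% had the larger absolute LFC on ChN, against 53.8% of all genes.

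The triplicated genes show the size of the trisomy on each diet. On Mmu16, 66 genes on the study's list were tested. Their mean level ran from 4.62 to 4.88 log2 CPM in 2N ChN (median 4.73) and from 5.23 to 5.31 in Ts ChN (median 5.26). On ChP it ran from 4.62 to 4.77 in 2N (median 4.73) and from 5.14 to 5.28 in Ts (median 5.22). Ts and 2N libraries did not overlap on either diet, and the diets did within each genotype. The median LFC of the 66 genes was 0.56 on ChN and 0.54 on ChP, beside the 0.585 that is the log2 of 1.5. The median interaction was -0.01, against 0.01 over all genes tested.

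Of the 25 triplicated Mmu17 genes the median LFC was 0.59 on both diets. Of the 91 genes together, 87 had an LFC above 0 on ChN and 89 on ChP. In 54 of the 91 the lower bound of the 95% interval of the interaction lay above minus 0.585, so that the loss of a full 1.5-fold excess on ChP was outside it.

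**Figure D2:**
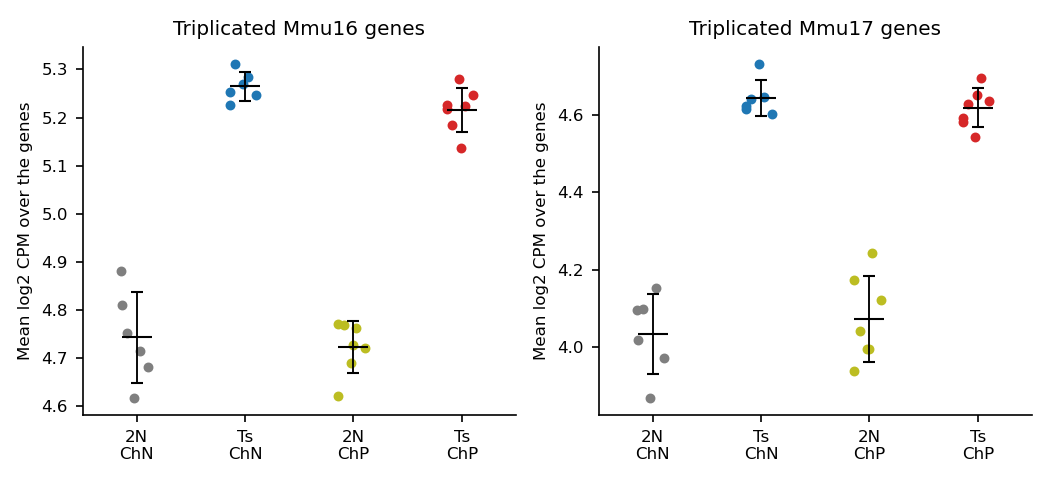
Mean log2 CPM over the triplicated Mmu16 genes (left) and Mmu17 genes (right) in each CA3 library (points) of the 4 groups, with the group mean and SD (bars). On Mmu16 the Ts libraries lie at 5.14 to 5.31 and the 2N libraries at 4.62 to 4.88, with both diets at the same levels.

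The dosage genes most studied in Down syndrome gave interactions near 0. App, the amyloid precursor, measured 1950 to 2228 CPM in 2N ChN (median 2044) and 2831 to 3172 in Ts ChN (median 3079). On ChP it measured 1867 to 2436 in 2N (median 2016) and 2648 to 3128 in Ts (median 2960). Genotypes were thus apart on both diets, and the interaction was -0.09 (95% interval -0.24 to 0.07). Dyrk1a, a kinase of neuronal development and tau, had 0.02 (-0.21 to 0.26), and Rcan1, an inhibitor of the phosphatase calcineurin, had 0.06 (-0.26 to 0.38). Synj1, which strips clathrin coats from synaptic vesicles, had -0.10 (-0.27 to 0.07). Kcnj6, a G protein-gated potassium channel, had -0.11 (-0.36 to 0.15) and the superoxide dismutase Sod1 had 0.11 (-0.15 to 0.36). Pcp4, a calmodulin regulator that marks CA2, varied most between mice and its interval was wide (0.78, -0.76 to 2.32).

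Of the 91 triplicated genes 5 were called, 3 of 66 on Mmu16 (4.55%) and 2 of 25 on Mmu17, where 4.87% of all genes were. Ifngr2, the second chain of the interferon gamma receptor, ran from 41.8 to 60.5 CPM in 2N ChN (median 46.9) and from 77.4 to 97.0 in Ts ChN (median 89.1). On ChP it ran from 46.7 to 78.6 in 2N (median 57.5) and from 66.6 to 94.1 in Ts (median 78.7). The genotypes were apart on ChN and overlapped on ChP, with LFCs of 0.89 and 0.43 and an interaction of -0.46 (SE 0.16). Slc5a3, the myo-inositol transporter, had LFCs of 0.63 and 0.33 (interaction -0.30, SE 0.15). It lies within Mrps6 on the same strand, so counts of the pair are uncertain, and it was called in 11 of 26 fits with a library left out. Pigp, of GPI anchor synthesis, had LFCs of 0.93 and -0.12 (interaction -1.05, SE 0.48), at 6.38 CPM on average and overlapping Ttc3, and was called in 19 of the 26. Under the Ts label of mouse 15-145, none of these 3 was called.

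On Mmu17, Pde10a, a phosphodiesterase that breaks down cAMP and cGMP, moved the other way. It measured 106 to 139 CPM in 2N ChN (median 120) and 134 to 193 in Ts ChN (median 160). On ChP 2N libraries had 88.1 to 113 (median 105) and Ts libraries 142 to 189 (median 162). The groups overlapped on ChN and were apart on ChP, with an interaction of 0.31 (SE 0.13). Rsph3b, a radial spoke gene at 3.37 CPM with a close paralog, had -1.79 (SE 0.68).

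**Figure D3:**
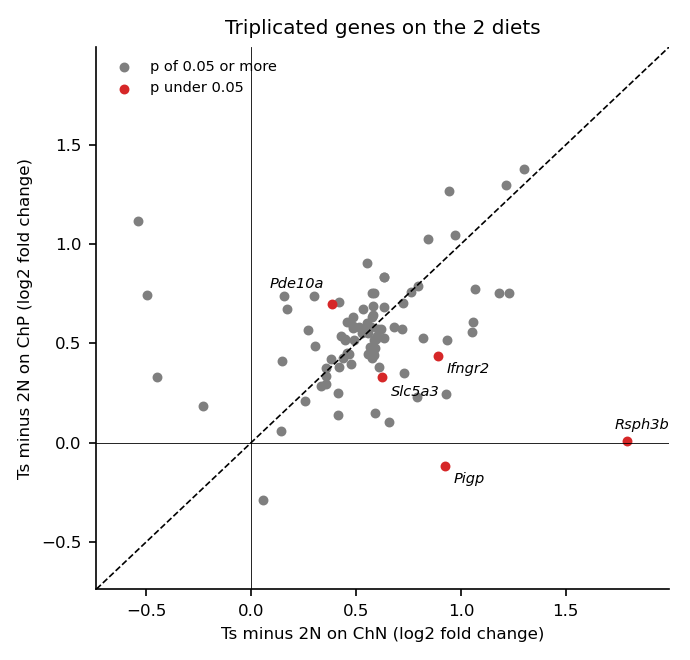
LFC of Ts minus 2N on ChN (x axis) and on ChP (y axis) for the 91 triplicated genes of Mmu16 and Mmu17, with the line of equal LFC (dashed) and the 5 genes of unadjusted interaction p under 0.05 in red. Most points lie near 0.6 on both axes, with Ifngr2, Slc5a3, Pigp and Rsph3b below the line and Pde10a above it.

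Outside the triplicated segments, the 10 genes of smallest p in each direction (mean of at least 5 CPM) are described next. All 20 had adjusted p of 0.564 or more, so they lead a list that as a whole does not exceed the nominal rate. Each of the 20 stayed under an unadjusted p of 0.05 in all 26 fits without 1 library, and 19 in every other setting, which their choice by smallest p favors. The exception was Epb41l4b under the Ts label of mouse 15-145. In the model of all 81 libraries described below, Medag and Tenm3 were not under 0.05 in CA3 PNs. They had 1.07 (SE 0.54, unadjusted p = 0.0537) and -0.73 (SE 0.69, unadjusted p = 0.298) by edgeR's quasi-likelihood test.

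The smallest p belonged to Medag (chr5:149334629-149356015, GRCm39), a gene first described in fat cell differentiation. It measured 30.7 to 41.0 CPM in 2N ChN (median 35.7) and 17.7 to 34.8 in Ts ChN (median 24.7). On ChP it measured 7.41 to 21.0 in 2N (median 17.0) and 14.2 to 27.9 in Ts (median 23.5). The 2N libraries of the 2 diets were fully apart, and the Ts medians lay between them. The LFC was -0.52 on ChN and 0.57 on ChP, for an interaction of 1.09 (SE 0.26, 95% interval 0.57 to 1.62, adjusted p = 0.564 by edgeR's quasi-likelihood test).

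Egr4 (chr6:85485678-85490675) encodes a zinc finger transcription factor of the Egr family, whose genes are switched on within minutes of neuronal activity. It measured 18.6 to 30.7 CPM in 2N ChN (median 20.5) and 13.5 to 18.5 in Ts ChN (median 18.1). On ChP it measured 10.9 to 31.2 in 2N (median 12.6) and 18.0 to 35.8 in Ts (median 23.5). Ts lay under all 2N libraries on ChN, and on ChP above all but 1 of the 2N libraries, the shallow one. The interaction was 1.13 (SE 0.28, 95% interval 0.58 to 1.68, adjusted p = 0.564 by edgeR's quasi-likelihood test). Without the Ts ChP library that had dentate markers, which had the highest Egr4 value, the interaction was 1.02, and over all 26 such fits it ran from 0.99 to 1.31.

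The region before the Egr4 start is shown because the gene leads the activity-regulated list. The 250 bases upstream (RefSeq, GRCm38.p6, chr6:85513590-85513839, minus strand) are given 5′ to 3′ with capitals marking CGTCA, the complement of TGACG, the core of the cAMP response element.
Egr4 upstream: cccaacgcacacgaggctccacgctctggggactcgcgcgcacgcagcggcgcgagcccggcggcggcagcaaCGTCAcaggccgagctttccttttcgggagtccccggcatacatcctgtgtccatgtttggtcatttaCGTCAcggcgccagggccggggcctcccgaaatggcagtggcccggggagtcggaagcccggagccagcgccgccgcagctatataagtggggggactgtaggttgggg
The window holds the core 2 times, starting 177 and 109 bases before the start. On either strand 17.8% of 32851 windows of this length held it at least once and 3.9% 2 times or more. Of the 32 listed immediate early genes 25 had a window, and in 18 of these a window held it. That count is by gene, with any window of the gene sufficing, while the 17.8% is by window, so the shares cannot be compared. The matches to the core are letters in a window and were not set against the interaction.

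The other positive genes had the same form, lower in Ts on ChN and higher in Ts on ChP, as did all 10. Camk1, a calcium/calmodulin-dependent kinase, measured 34.6 to 63.4 CPM in 2N ChN (median 57.2) and 35.4 to 55.1 in Ts ChN (median 43.2). On ChP it measured 18.0 to 44.7 in 2N (median 32.9) and 37.0 to 54.4 in Ts (median 43.5). The groups overlapped on each diet, and the interaction was 0.77 (SE 0.20). Epb41l4b, a membrane-cytoskeleton linker of the band 4.1 family, had 0.79 (SE 0.21) and Ddx27, an RNA helicase of ribosome assembly, 0.76 (SE 0.22). Nsun5, which methylates ribosomal RNA, had 1.51 (SE 0.48), and was the 1 gene of the 20 whose genotypes did not overlap on ChP (2.72 to 6.64 CPM in 2N, 6.78 to 9.84 in Ts), beside 0.263% of all genes tested and 0.387% of those of at least 5 CPM. Fchsd2, an actin and endocytosis protein, had 0.69 (SE 0.22). Rps23 and Adarb2 are also among the 10 and are given with their groups. Nsun5 overlaps Pom121, Fchsd2 overlaps Atg16l2, Rps23 overlaps Atg10 and Adarb2 overlaps Gm48261, with counts that could be split between the genes of each pair.

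The negative genes had another form. In 6 of the 10 the LFC on ChP was within 0.1 of 0, so that the interaction was the ChN difference alone, with 2N ChN the low group. Nsg2, a protein of endosomes and receptor trafficking in neurons, measured 205 to 279 CPM in 2N ChN (median 265) and 293 to 388 in Ts ChN (median 356). On ChP it measured 252 to 400 in 2N (median 313) and 269 to 345 in Ts (median 328). Genotypes were apart on ChN and alike on ChP, with LFCs of 0.44 and 0.01 and an interaction of -0.43 (SE 0.12).

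Fmnl2, a formin that elongates actin filaments, showed the same order. Its 2N ChN libraries had 13.7 to 22.9 CPM and its Ts ChN libraries 26.5 to 37.6, against 19.1 to 29.1 and 22.6 to 33.1 on ChP (interaction -0.78, SE 0.23). Prkg1, the cGMP-dependent kinase, had 32.5 to 56.5 CPM in 2N ChN and 56.3 to 73.1 in Ts ChN, against 46.7 to 64.5 and 45.8 to 67.1 on ChP (interaction -0.56, SE 0.17). Dab1, the adaptor of reelin signaling, had -0.56 (SE 0.18) and the actin regulator cortactin, Cttn, -0.44 (SE 0.13), with genotypes apart on ChN in both. Pgr, the progesterone receptor, had -1.16 (SE 0.37). Opposite signs on the diets were seen in the lysosomal lipase Lipa (-0.98, SE 0.31), the chondroitin enzyme Chpf2 (-0.66, SE 0.21) and Uevld (-1.43, SE 0.42). Prkg1 overlaps Cstf2t, and Chpf2 overlaps Smarcd3 and Abcf2, so counts could be split between these genes.

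Tenm3, a teneurin that guides hippocampal wiring by adhesion between cells, measured 15.9 to 24.8 CPM in 2N ChN (median 20.5) and 31.0 to 49.2 in Ts ChN (median 35.4). On ChP it measured 16.3 to 48.2 in 2N (median 27.8) and 21.1 to 42.3 in Ts (median 36.5). The genotypes were apart on ChN and overlapped across nearly the whole range on ChP. The interaction was -0.72 (SE 0.23), and without the highest 2N ChP library (replicate 3) it was closest to 0, at -0.55. In 6 of the 20 genes the 2N and Ts libraries did not overlap on ChN, beside 0.748% of all genes tested and 1.08% of those of at least 5 CPM. That contrast is part of the interaction by which the 20 were chosen, so the count is a description only.

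**Figure D4:**
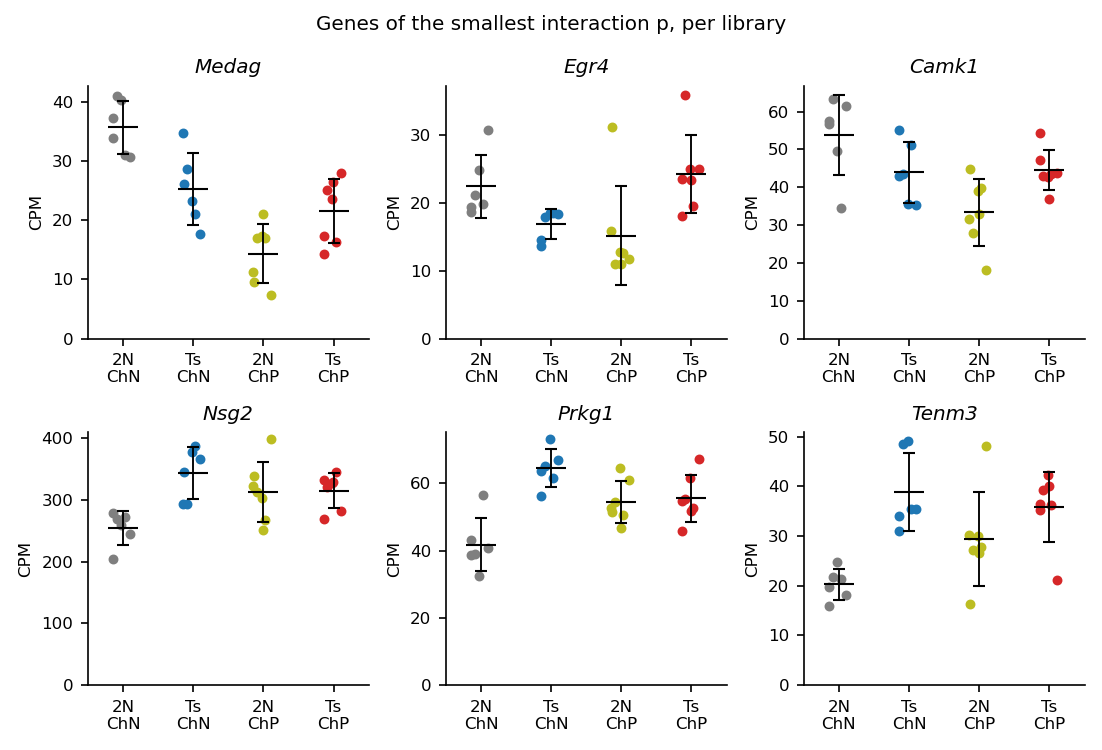
CPM per CA3 library (points) in the 4 groups with the group mean and SD (bars) for 3 genes with positive and 3 with negative interactions. Medag, Egr4 and Camk1 have lower means in Ts than in 2N on ChN and higher ones on ChP, while in Nsg2, Prkg1 and Tenm3 the 2N ChN group has the lowest mean.

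Genes that the ChN contrast made prominent had interactions of the opposite sign to their ChN difference. That contrast is part of the interaction, so values are given with no test. Col4a1 and Col4a2, the basement membrane collagen chains that share a promoter region, had LFCs of 0.81 and 0.82 on ChN and 0.54 and 0.42 on ChP. Rph3a, a synaptic vesicle effector of Rab proteins, had -0.51 and -0.11, the imprinted Nap1l5 -0.61 and -0.28, and the guanine nucleotide exchange factor Arhgef10l -1.94 and -0.41. In each the difference on ChP kept its sign and was the smaller one.

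The gene lists here and below were chosen with earlier results of these data known, so their shares of called genes are a description only. The 3 lists of choline use and methylation held 1 or 2 called genes each, beside the 4.87% of all genes. Among 27 genes of choline transport and phosphatidylcholine synthesis 1 was called (3.70%), with a median interaction of 0.06. It was Chka, the choline kinase that begins the phosphatidylcholine pathway, whose groups overlapped on both diets: 64.3 to 88.3 CPM in 2N ChN, 59.4 to 106 in Ts ChN, 67.7 to 93.5 in 2N ChP and 60.3 to 90.9 in Ts ChP (-0.34, SE 0.16). It was called in 19 of 26 fits with a library left out.

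Of 28 genes of one-carbon and S-adenosylmethionine metabolism 2 were called, both positive (7.14%, median 0.15). Aldh7a1, which oxidizes betaine aldehyde, had LFCs of -0.24 and 0.59 (0.84, SE 0.32), and overlaps Phax on the other strand. Ahcyl1, a relative of the S-adenosylhomocysteine hydrolase that regulates IP3 receptors, had 0.23 (SE 0.11). It was called in 11 of 26 fits with a library left out and in 7 of 9 other settings. Of 20 genes that write, erase or read DNA methylation 2 were called, both positive (10%, median 0.07). They were Tet2, which oxidizes methylcytosine (0.38, SE 0.16), and the repair glycosylase Mbd4 at 2.92 CPM (1.51, SE 0.70). Mbd4 was called in 19 of 26 fits with a library left out and in 5 of the 8 other settings that gave it a value. No gene of the 12 acetylcholine receptors and enzymes was called, and Chrm1, the chief muscarinic receptor of these neurons, had 0.00 (-0.21 to 0.21).

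Immediate early genes lay on the positive side as a list. Of 32 tested 24 had a positive interaction, beside 51.6% of all genes, with a median of 0.26 against 0.01 over all genes. Of these 32, 3 were called, all positive (9.38% beside 4.87% of all genes). Beside Egr4 these were Sik1, a salt-inducible kinase at 4.41 CPM (1.55, SE 0.59), and Egr3 (0.26, SE 0.12), which was called in 15 of the 26 fits without 1 library. Fos had 0.80 (SE 0.44), Egr1 0.43 (SE 0.27), Npas4 0.58 (SE 0.49) and Arc 0.35 (SE 0.32), none of them called, while Jun had -0.62 (SE 0.43) and Dusp1 -0.54 (SE 0.47).

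The mean of the list ran from 4.54 to 4.96 log2 CPM in 2N ChN, 4.63 to 4.99 in Ts ChN, 4.25 to 4.78 in 2N ChP and 4.36 to 5.05 in Ts ChP. All 4 groups overlapped, with the lowest median in 2N ChP. These genes share regulators, so their number is not a number of independent results. The median stayed between 0.19 and 0.30 in all other fits.

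Synaptic and signaling lists had called genes in both directions. Of 58 genes of the vesicle release machinery 3 were called positive and 3 negative (10.3% beside 4.87% of all genes, median 0.00). In other settings 3 to 10 were called. The Munc13 isoform Unc13c had 1.86 (SE 0.57) and the priming factor Cadps2 -0.94 (SE 0.34), and neither was called under the Ts label of mouse 15-145. Erc1, of the presynaptic active zone, had -0.28 (SE 0.12). Syt17 had -3.62 (95% interval -5.61 to -1.63) on a mean of 1.97 CPM, with 1 library of 2N ChP at 17.5 CPM against at most 5.45 in any other library. Without it the interaction was -2.70.

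Of 48 calcium and calmodulin genes 3 were positive and 2 negative (10.4% beside 4.87% of all genes, median 0.01). The count ran from 2 (without Ts ChN replicate 6 or 2N ChN replicate 5) to 10 (without 2N ChN replicate 4) when single libraries were left out, and was 2 with the marker covariate and 9 with limma-voom. With Camk1 the positive genes were Camkk2, the kinase that activates Camk1 (0.31, SE 0.13), and the plasma membrane calcium pump Atp2b2 (0.21, SE 0.10), called in 4 of the 9 other settings. The negative genes were Camk2g (-0.33, SE 0.14) and, outside the rule for named genes, Camk2b (-0.19, SE 0.09), both subunits of calcium/calmodulin-dependent kinase II. The phosphodiesterase Pde1a, on the PKA list with Pde10a, had -0.33 (SE 0.14). Of 32 voltage-gated potassium channels 4 were called (12.5% beside 4.87% of all genes). They were Kcnq3 (-0.21, SE 0.11) and Kcnq5 (-0.51, SE 0.24), which form the M current that muscarinic receptors close, and the low Kcna3 and Kcnh7 on the positive side. None of these 4 was called with the markers of other cells as a covariate or under the Ts label of mouse 15-145.

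None of 29 AMPA, NMDA and kainate receptor genes was called, and Gria1 had -0.03 (-0.20 to 0.13) and Grin2b -0.09 (-0.49 to 0.30). Of the metabotropic receptors only Grm2, at 0.76 CPM, was called (3.18, SE 1.58). One Ts ChP library held 9.84 CPM of it, the library with the dentate markers, and without that library the interaction was 2.01 and not called.

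In the next pathway lists, from App processing to interferon genes, the shares called ran from 0% to 7.14%, beside 4.87% of all genes. None of 48 App processing and endosome genes, 45 chaperones or 33 antioxidant and hypoxia genes was called, nor any of the 7 mitochondrially encoded genes tested, which had a median of 0.12. Of 63 autophagy and lysosome genes 2 were called, of 47 glycolysis and TCA cycle genes 1, of 37 cholesterol genes 1, of 77 mitochondrial ribosomal proteins 2 and of 79 nuclear-encoded OXPHOS subunits 3. Cholesterol genes had a median interaction of -0.13. Of 28 interferon genes Stat3 was called beside Ifngr2. Stat3 carries cytokine signals to the nucleus. It ran from 51.1 to 55.9 CPM in 2N ChN and 29.7 to 47.9 in Ts ChN, and overlapped on ChP (0.57, SE 0.19, not called with the marker covariate).

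Of 25 collagen and basement membrane genes 3 were called (12% beside 4.87% of all genes), Col4a2 and the low laminins Lama4 and Lama5. Of 11 teneurins and their partners Tenm3 was called, and of 28 calcium, sodium and HCN channels Cacna1i alone (-1.20, SE 0.57, called in 11 of 26 fits). Over the 31 pathway and family lists 68 of 1128 genes tested were called (6.03%, beside 4.87% of all genes), and 6 lists held none. Col4a2 and Tenm3 were known from the ChN contrast, which is part of the interaction, and the choice of lists could favor such shares.

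Cytosolic ribosomal protein genes leaned to the positive side. Of 83 tested 64 had a positive interaction, as did 51.6% of all genes, and 8 were called, all positive (9.64% beside 4.87% of all genes), with a median of 0.17. Rps23 had 0.72 (SE 0.22), Rpl30 0.56 (SE 0.24) and Rpl11 0.58 (SE 0.26). The count of called genes ran from 4 to 16 when libraries were left out, with the fewest without Ts ChN replicate 5, and was 4 under the Ts label of mouse 15-145. These genes have many processed pseudogenes that share reads with them.

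The mean of the list, 4.81 to 5.16 log2 CPM in 2N ChN, 4.79 to 5.06 in Ts ChN, 4.75 to 5.05 in 2N ChP and 4.83 to 5.20 in Ts ChP, overlapped between all groups. The mitochondrial share of counts moved in the same direction, from 7.37 ± 0.85% (SD, n = 6) in 2N ChN to 6.45 ± 0.22% (n = 6) in Ts ChN, and from 6.97 ± 0.82% (n = 7) in 2N ChP to 7.13 ± 0.66% (n = 7) in Ts ChP. Its part in the ribosomal protein values was not tested.

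Of 27 long noncoding and imprinted genes 5 were called (18.5% beside 4.87% of all genes, median -0.03), 4 negative and 1 positive. The count was 3 without Ts ChN replicate 6 or 2N ChN replicate 3 and with the marker covariate, and ran up to 7 in other fits. Meg3, the maternally expressed noncoding RNA of the Dlk1-Dio3 locus, measured 1631 to 2883 CPM in 2N ChN, 1867 to 3016 in Ts ChN, 1920 to 2844 in 2N ChP and 1545 to 2456 in Ts ChP (-0.43, SE 0.19). Mirg, from the same locus, had -0.53 (SE 0.22). Miat, a nuclear noncoding RNA of neurons, had -0.56 (SE 0.17). Snhg11, the fifth gene called and outside the rule for named genes, had -0.47 (SE 0.21). Paternally expressed Usp29 had 0.52 (SE 0.22). The groups of Meg3 overlapped on each diet, and it was not called by limma-voom or with the marker covariate.

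Clustered protocadherins, the adhesion proteins that give single neurons an identity, had 8 of 57 called (14.0% beside 4.87% of all genes, median 0.12). Of the 8, 5 were positive and 3 negative, and without Ts ChP replicate 4 there were 5 called. Pcdhb11 had 1.49 (SE 0.53) and Pcdhb20 -1.09 (SE 0.40), Pcdha2 -1.15 (SE 0.43) and Pcdhgb4 -1.15 (SE 0.48). Each was at 5.58 to 8.76 CPM. Genes of the alpha and gamma clusters overlap and share their last exons, so their counts are uncertain and not independent.

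Transcripts of inhibitory neurons had the largest share of called genes of any list. Of 13 markers all had a positive interaction, beside 51.6% of all genes, and 5 were called (38.5% beside 4.87% of all genes). Their median interaction was 0.53, with LFC medians of -0.70 on ChN and 0.02 on ChP. In bulk samples fewer cells of a type and less RNA per cell cannot be told apart. Summed over the 13 genes, the markers came to 332 to 587 CPM in 2N ChN (median 502) and 300 to 377 in Ts ChN (median 340). On ChP they came to 336 to 542 in 2N (median 428) and 300 to 455 in Ts (median 374). Ts ChN had the narrowest and lowest range, and the groups overlapped on each diet. Gad1 and Slc32a1, which every GABA neuron uses, had interactions of 0.15 and 0.08, neither of them called.

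The called markers were those of subclasses. Adarb2, which marks interneurons of the caudal ganglionic eminence, had 6.93 to 11.8 CPM in 2N ChN, 1.84 to 8.53 in Ts ChN, 1.53 to 8.17 in 2N ChP and 2.99 to 20.4 in Ts ChP (1.74, SE 0.51). Sst, somatostatin, had 25.4 to 120 CPM in 2N ChN (median 53.4), 9.90 to 23.2 in Ts ChN (median 16.8), 20.7 to 82.7 in 2N ChP (median 45.4) and 7.40 to 45.9 in Ts ChP (median 32.2). Its genotypes were apart on ChN and overlapped on ChP (1.504, SE 0.53). Npy, the neuropeptide Y precursor, had 2.24 (SE 0.79), Vip 2.43 (SE 1.03) at 1.33 CPM, and Lhx6, the fifth and outside the rule for named genes, 1.36 (SE 0.59). Ts ChP replicate 5 held 6.80 CPM of Vip, against at most 2.35 in the rest of its group. Without that library, or with the marker covariate, Vip was not called.

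The highest Sst value and the highest Npy value of 2N ChN, 120 and 51.7 CPM, came from the library of mouse 15-145. Without it the interaction was 1.09 for Sst and 1.47 for Npy, both still called. Under its Ts label the values were -0.03 and 0.19, neither of them called, and 3 of the 13 markers were called with a median of 0.14. With the mean of the non-neuronal and inhibitory markers as a covariate, 3 of the 13 were called as well, with a median of 0.30, and 791 genes in all. That mean includes the 13 genes themselves, which by construction favors a smaller interaction in them.

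Of the other 12 marker lists 11 held no called gene, those of excitatory, CA3, CA2 and CA1 pyramidal neurons, dentate granule cells, oligodendrocytes and their precursors, microglia, vascular cells, choroid plexus and sex among them. In astrocytes Gja1, a gap junction protein, was called (0.54, SE 0.26), in 9 of the 26 fits without 1 library.

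**Figure D5:**
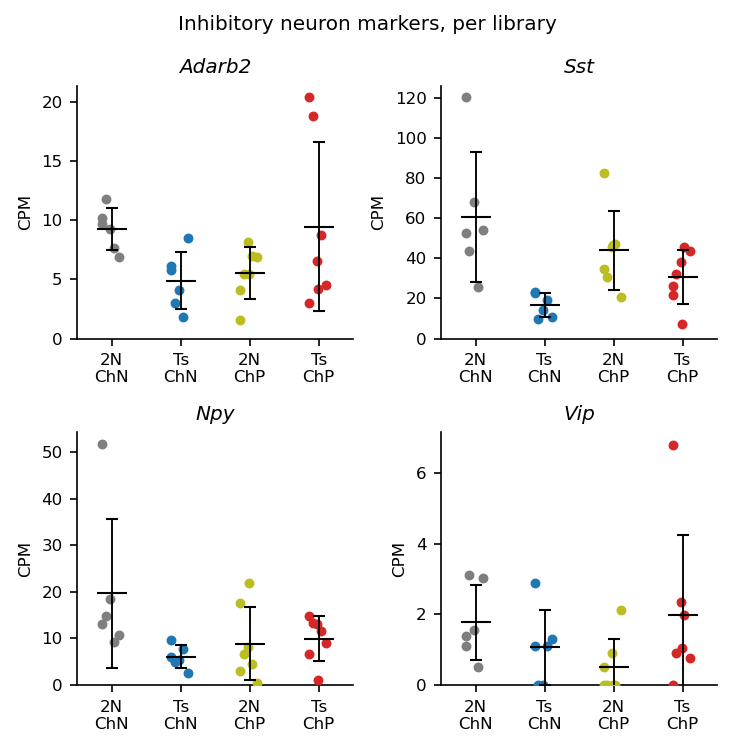
CPM per CA3 library (points) of 4 inhibitory neuron markers in the 4 groups, with the group mean and SD (bars, cut at 0). Sst lies lowest in Ts ChN (9.90 to 23.2 CPM), and the highest 2N ChN points of Sst (120 CPM) and Npy (51.7 CPM) are the library of mouse 15-145.

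To ask whether the interaction differed between neuronal populations, all 81 libraries were fitted in 1 model. Of the 26 CA3 mice 25 also gave a CA1 library and 26 a DGC library, and this fit ignored that pairing. Counts with the mouse as a block are given in the last section. Subtracting the interaction of CA1 PNs from that of CA3 PNs gave an unadjusted p below 0.05 for 978 of 20493 genes (4.77%), and CA3 PNs minus DGCs for 962 (4.69%). No gene passed after adjustment in either, with smallest adjusted p of 0.337 and 0.577 (edgeR's quasi-likelihood test), and limma-voom called 793 and 798 genes without and 0 with adjustment. No gene's interaction was thus shown to be particular to CA3 PNs.

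Of the 20 genes of smallest p in CA3 PNs, 7 differed from CA1 PNs and 12 from DGCs at an unadjusted p under 0.05, 5 of them from both, which their choice by the CA3 values favors. The sign was the same as in CA3 PNs for 15 of the 20 in CA1 PNs and for 10 in DGCs. In CA1 PNs 2 of the 20 were themselves under 0.05, and in DGCs 1. Camk1, among the 7, had the larger interaction in CA1 PNs (2.31, SE 0.68, against 0.73, SE 0.33, in CA3 PNs). In this model Adarb2 had 1.75 (SE 0.48) in CA3 PNs, -0.44 (SE 0.46) in CA1 PNs and 0.16 (SE 0.26) in DGCs. Fmnl2 had -0.79 (SE 0.26), 0.14 (SE 0.29) and 0.02 (SE 0.22). Fchsd2 had 0.67 (SE 0.25), -0.18 (SE 0.26) and -0.42 (SE 0.28). Egr4 was positive in each population, with 0.35 (SE 0.35) in CA1 PNs and 0.43 (SE 0.53) in DGCs, and neither difference from CA3 PNs was called. App, with its interaction near 0 in CA3 PNs, had 0.29 (SE 0.10) in CA1 PNs and -0.07 (SE 0.10) in DGCs, and the difference of CA3 PNs from CA1 PNs was -0.39 (adjusted p = 0.956 by the same test).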

How the data were processed

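RNA of laser-captured CA3 PNs was sequenced, and the authors deposited RSEM expected counts per gene, unnormalized, after alignment to GRCm39 with STAR. The submitters' processing notes also name FastQC 0.11.9, Trimmomatic 0.39 and Picard 2.26.2, and list both GRCm39 and mm10. In the CA3 matrix 2.69% of the expected counts above 0 were not whole, as reads that match several genes are divided, and they were rounded. All 26 columns equalled the files per library. Of 57010 gene identifiers 56310 had a symbol in GENCODE M39.

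Groups follow the labels, except for the library of mouse 15-145 (see the report). Genes above 0.1 CPM in at least 10 libraries were tested with edgeR 4.0.16 in R 4.3.3 (TMM, robust glmQLFit and glmQLFTest, two-sided), with 4 group means and the interaction as a contrast. The study's read-quality covariates were not used. Intervals are at 95%. Mean log2 CPM used a prior count of 2. The comparison between populations fitted 12 group means to all 81 libraries, and mouse numbers in the titles link the libraries of 1 mouse. Labels do not say whether mice shared litters, and the diet was given to dams. The fits treat mice as independent, so standard errors and p-values could be too small where mice shared a dam. At the range of depths 0.1 CPM is 0.0625 to 0.474 of a count.

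Genes were named as the 10 of smallest p in each direction at 5 CPM or more (leaving out predicted genes), up to 4 called genes of each list or else its 2 most abundant, 7 dosage genes and 6 genes prominent on ChN. Any with an adjusted p under 0.05 would have been added. Some genes that this rule names are not reported here. The members and lists were chosen with earlier results of these data known, and the triplicated genes are the study's. The code was tested on simulated data. Alternatives used DESeq2 1.42.0, limma 3.58.1 and sva 3.50.0. Figures were drawn with matplotlib 3.10.9 in Python 3.11.15.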

Additional observations from a re-analysis of the deposited data

Results flagged for a closer look

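Of 388 sets of group values examined, 31 (7.99%) held a library far from the rest of its group by Dixon's criterion. That criterion flags about 1 in 20 sets when values are independent and normally distributed. The sets here include CPM values near 0 and genes named for a small p, so the 7.99% cannot be read against that rate. In 2N ChN the outlying values were 13.2 CPM of Nsun5, 9.29 of Uevld, 100.5 of Abcg1 and 51.7 of Npy at the high end. At the low end they were 84.9 CPM of Sod1, 76.8 of Nap1l5 and 0 of Atg4a. The Npy value is that of mouse 15-145.

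In Ts ChN the values were 33.9 CPM of Pcp4, 29.7 of Aldh7a1, 4.46 of Mbd4, 4.78 of Syt17 and 15.5 of Pcdha2 at the high end and 21.3 of Cacna1i at the low end. The mean over triplicated Mmu17 genes of 1 library there was 4.73 log2 CPM against at most 4.65 in the others.

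In 2N ChP the values were 31.2 CPM of Egr4, 34.8 of Ddx27, 20.1 of Uevld, 0.631 of Grm2, 17.5 of Syt17, 290 of Kcnq5, 40.3 of Usp29, 82.7 of Sst, 2.12 of Vip and 18.3 of Pcdha2, all of them high. Syt17, Kcnq5 and Vip came from the same library, replicate 3, and Egr4 and Sst from the shallow replicate 5.

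In Ts ChP the high values were 35.8 CPM of Egr4, 17.9 of Lipa, 9.84 of Grm2 and 6.80 of Vip, and the low ones 21.1 of Tenm3 and 8.77 of Pgr. The Egr4, Lipa and Grm2 values belong to replicate 2, whose dentate granule cell markers summed to 173 CPM against at most 51.8 in the rest of the group. Without that library Egr4 and Lipa stayed under an unadjusted p of 0.05. No gene's interaction, and no difference of the interaction between populations, passed at an adjusted p under 0.05.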

How the results depend on the processing

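No gene was called after adjustment in any other fit. The count of calls at an unadjusted p moved with the number of genes tested: 505 of 10436 genes with filterByExpr (minimum count 10) and 1536 of 25664 with no filter, against 814 of 16721. In the other 7 settings it lay between 660 and 997 and in the 26 fits without 1 library between 720 and 889. The share of positive calls was 56.1%, and 47.6% with library totals in place of TMM, 48.0% with mouse 15-145 under its own label and 49.1% with DESeq2, so the excess of positive calls depends on these choices. The pathway lists held 57 to 100 called genes in the other settings and 59 to 86 without single libraries, against 68. Among named genes Sst reversed, to -0.028 under that label. Of 61 called list genes 31 were called in every fit without 1 library and 18 in every other setting. Replicate numbers are in accession order and pair no samples. With the mouse as a replicate block in the comparison between populations, 694 genes differed from CA1 PNs and 670 from DGCs, against 978 and 962, and none after adjustment. No CA3 library had under 500000 counts, so the planned fit without such libraries was not run. A fit without the 2 libraries under 750000 counts, chosen after seeing the data, called 893 genes.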
